A study of Mus musculus with 6 samples.

Results

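The genes of 4 families of extracellular proteolysis were followed: the matrix metalloproteinases (MMPs), the ADAM and ADAMTS metalloproteinases, and the tissue inhibitors of metalloproteinases (TIMPs). They were chosen by name, as every array feature whose single gene symbol was Mmp, Adam, Adamts or Timp followed by a number and at most 1 letter. This gave 100 transcript clusters (the array's probe sets for a gene) for 75 genes of 20793 measured: 22 Mmp, 30 Adam, 19 Adamts and 4 Timp genes. The samples were whole, intact digit tips of 8-week-old mice on Affymetrix MoGene 1.0 ST arrays, 3 labelled K14-CreER;Ctnnb1 cKO (cKO here) and 3 labelled wildtype (control here). Ctnnb1 encodes beta-catenin, which joins cadherins to the cytoskeleton and acts in the Wnt pathway. The K14-CreER transgene places an inducible Cre under the keratin 14 promoter, active in the basal layer of epidermis and nail. The inducer and its timing, the extent of recombination and any Cre or floxed allele in the controls are not given in the sources used here. Because skin, nail, bone, blood vessels, nerves and glands were in 1 sample, each value is an average over these tissues, and more cells of a type cannot be told apart from more RNA per cell. The titles say biological replicate but name no animals. The p-values set a difference between groups against the spread among these 6 samples, which the main test pools in part over all genes. How far they apply to other animals is therefore not known.

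MMPs are zinc-dependent enzymes that cut collagens, proteoglycans and other matrix proteins, mostly after removal of an inhibitory propeptide. ADAMs are membrane-anchored relatives, several of which release growth factors, cytokines and receptors from the cell surface, and ADAMTSs are secreted relatives that process procollagens and proteoglycans. TIMPs bind the active site of these enzymes, each with its own range of targets. In skin and bone the families take part in wound closure, cartilage removal and bone turnover.

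The deposited values are log2 signals relative to the median of the controls of each cluster. No absolute level can be read from them: a low gene cannot be told from a high one, levels of different genes cannot be compared, and whether the defining markers of the tissue are present cannot be checked. Array medians lay between -0.0086 and 0.0779 on this scale. Differences below are cKO minus control on the log2 scale with the limma standard error (SE, 3 arrays per group). A gene was called at a limma adjusted p of 0.05, Benjamini-Hochberg over all 20793 genes. Ctnnb1, the targeted gene, was at -1.10, -0.87 and -1.06 in the cKO arrays, against 0, -0.19 and 0.59 in the control arrays. Its difference was -1.14 ± 0.24 (limma adjusted p 0.0284), a call that ended when control replicate 1 (0.0795) or 3 (0.138), or cKO replicate 1 (0.0944) or 3 (0.148), was left out.

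Of the 75 genes, 6 were higher in the cKO, 0 were lower and 69 were not called. The 6 were Mmp9, Timp1, Mmp13, Adam12, Mmp19 and Adamts12, so each of the 4 families held at least 1. Over all genes 1.94% were called, 1.24% higher and 0.697% lower. In 17 of the 75 the lowest cKO array exceeded the highest control array, against 10.1% of all genes, and in 4 every cKO array lay below, against 9.25%. At an unadjusted p of 0.05, limma put 18 members higher and 2 lower, with 6.73% and 5.73% of all genes. The median difference over the 75 was 0.07, against a median of -0.0044 over all genes. Of the 75, 54 lay within 0.5 of 0, against 17828 of all 20793 genes.

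**Figure D1:**
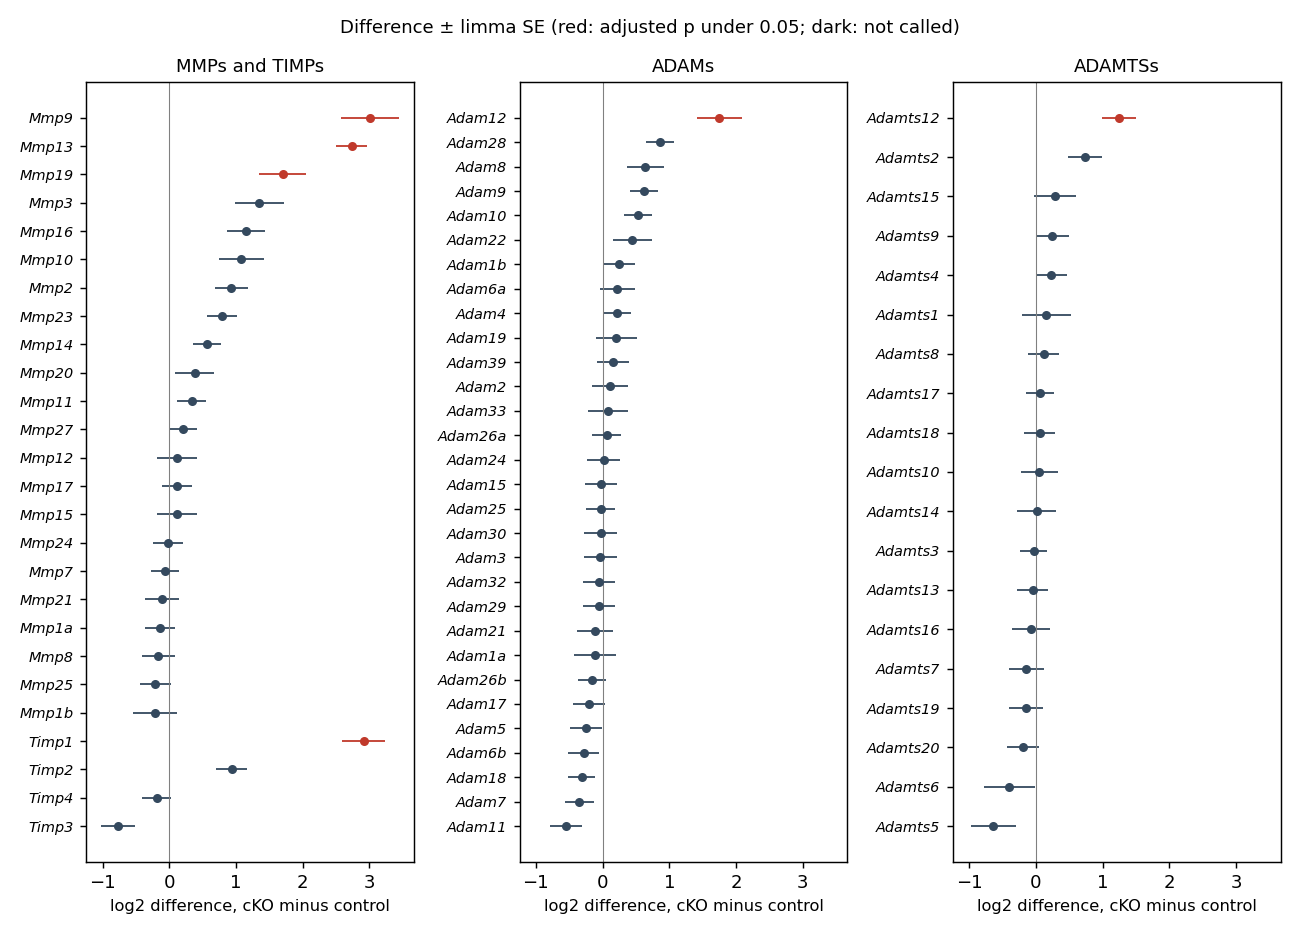
Difference between cKO and control on the log2 scale (horizontal axis) for each of the 75 genes (rows, sorted by difference within a family), points with limma SE over 3 cKO and 3 control arrays. Red points are the 6 called genes, which lie between 1.25 and 3.01, and most other genes lie near 0.

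The MMP family had the widest range of positive differences. Of 22 members 3 were higher, 0 were lower (0 also at an unadjusted p of 0.05) and 19 were not called, with a median difference of 0.27. The methods' t-test called 0 of the 22 in either direction, and 13 of all 20793 genes. In 9 of the 22 the cKO arrays all exceeded the controls, and in 0 they all lay below.

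Mmp13, a collagenase made by osteoblasts, hypertrophic chondrocytes and injured epidermis, was at 2.90, 2.46 and 3.01 in the cKO arrays and 0.27, -0.11 and 0 in the control arrays. All 3 cKO arrays lay far above the controls, with little spread in either group. The difference was 2.73 ± 0.23, a ratio of 6.64 (limma adjusted p 2.41e-05), and it stayed called in each of the 6 fits without 1 array. Its cluster spans positions 7272514 to 7283333 of mm9 on the plus strand. The RefSeq gene table of GRCm38.p6 places the gene on chromosome 9. The remaining collagenases were not called: Mmp8, the collagenase stored in neutrophils, differed by -0.16 ± 0.25, Mmp1a by -0.14 ± 0.22 and Mmp1b by -0.22 ± 0.33, and their groups overlapped. Mmp1a and Mmp1b are close relatives, so the share of each is uncertain.

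Mmp9 and Mmp2 are the gelatinases, which cut denatured collagen and basement membrane collagen. Mmp9 was at 3.82, 1.67 and 2.84 in the cKO arrays and -0.83, 0 and 0.12 in the control arrays. The groups were apart, with cKO replicate 2 the lowest of the cKO arrays and control replicate 1 the lowest of all. The difference was 3.01 ± 0.43, a ratio of 8.06 (limma adjusted p 0.00218), and it ended as a call without control replicate 1 (2.71, adjusted p 0.051). Mmp2 was at 0.97, 0.62 and 0.70 in the cKO arrays and 0.10, 0 and -0.60 in the control arrays. The groups did not overlap, but at 0.93 ± 0.24 the difference was not called (limma adjusted p 0.0819). The Mmp9 cluster spans positions 164773732 to 164781346 of mm9 on the plus strand.

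Mmp19, a secreted MMP with basement membrane substrates, was at 2.57, 1.503 and 2.28 in the cKO arrays and 1.28, 0 and -0.02 in the control arrays. The groups did not overlap, although control replicate 1 came within 0.3 of the lowest cKO array. The difference was 1.70 ± 0.36 (limma adjusted p 0.0286). Leaving out control replicate 3 (0.115), or cKO replicate 1 (0.0859) or 3 (0.206), ended the call.

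The stromelysins Mmp3 and Mmp10, which cut proteoglycans and other matrix proteins and activate other MMPs, had positive differences that were not called. Mmp3 was at 1.13, 0.81 and 2.47 in the cKO arrays and 0.54, -0.17 and 0 in the control arrays, without overlap, and differed by 1.35 ± 0.37 (limma adjusted p 0.099). Mmp10 was at 0.10, 1.56 and 1.52 in the cKO arrays and 0, -0.18 and 0.13 in the control arrays, and differed by 1.08 ± 0.34 (limma adjusted p 0.167). In Mmp10, cKO replicate 1 lay among the controls while the other cKO arrays lay well above them. Without cKO replicate 1 Mmp10 was called at 1.56 (adjusted p 0.00515), and without cKO replicate 2 Mmp3 was called at 1.68 (adjusted p 0.0302). Matrilysin (Mmp7), stromelysin-3 (Mmp11) and macrophage elastase (Mmp12) differed by -0.06, 0.34 and 0.12, with overlapping groups.

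Of 7 membrane-bound MMPs limma called 0 (3 higher and 0 lower at an unadjusted p of 0.05, 0 by the methods' t-test). Mmp16 was at 0.77, 1.52 and 0.80 in the cKO arrays and 0, -0.64 and 0.29 in the control arrays, and differed by 1.15 ± 0.29 (limma adjusted p 0.0683). Mmp14, the membrane enzyme that activates the Mmp2 proenzyme, was at 0.71, 0.55 and 0.61 in the cKO arrays and 0, 0.25 and -0.07 in the control arrays. Its 3 cKO values lay close together and above the controls, but the difference was 0.56 ± 0.21 (limma adjusted p 0.264). Mmp23 differed by 0.79 ± 0.23 (limma adjusted p 0.123), without overlap, and Mmp15, Mmp17, Mmp24 and Mmp25 lay between -0.21 and 0.12.

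**Figure D2:**
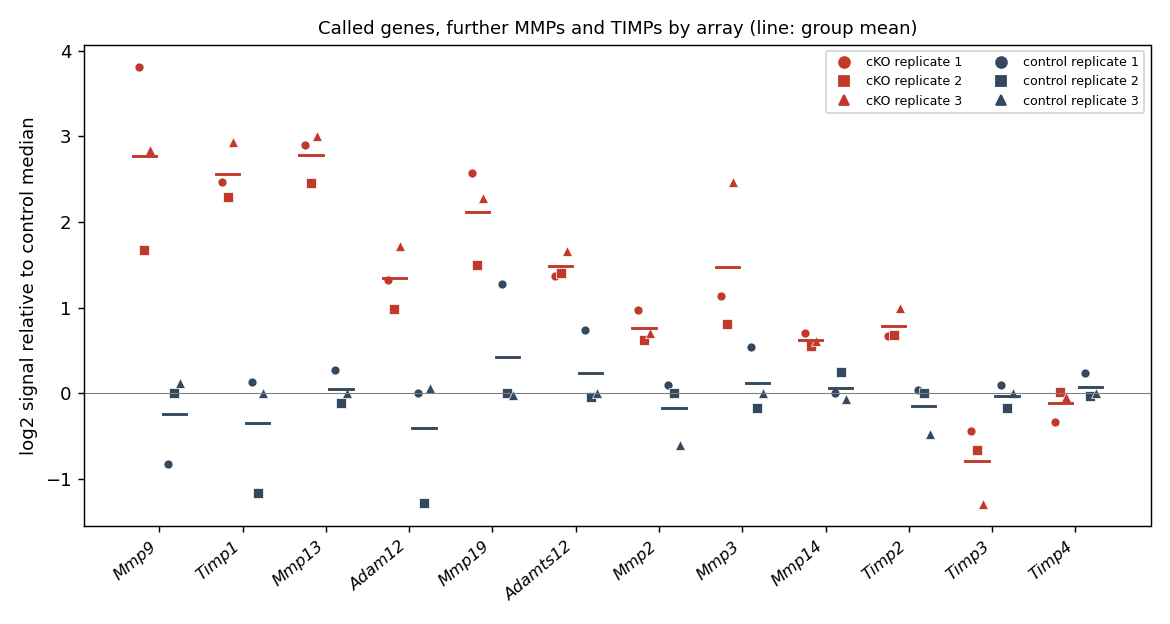
Log2 signal relative to the control median (vertical axis) on each array for the 6 called genes, then Mmp2, Mmp3, Mmp14, Timp2, Timp3 and Timp4, with cKO arrays in red left of control arrays in dark, 1 symbol per replicate number and a line at the group mean. The cKO and control arrays do not overlap in any gene shown except Timp4, and Timp3 is the gene in which the cKO arrays lie lower.

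In the mouse 10 MMP genes lie next to each other on chromosome 9, with no other protein-coding gene between them in the RefSeq table, in the order Mmp13, Mmp12, Mmp1b, Mmp3, Mmp1a, Mmp10, Mmp8, Mmp27, Mmp20 and Mmp7. Of the 10, limma called 1 and did not call 9. Mmp13 was the 1 called member, Mmp3 and Mmp10 followed with the differences given above, and the other 7 lay between -0.22 and 0.38. The median difference of the 10 was 0.16, against 0.45 for the 12 MMP genes elsewhere in the genome. Whether neighbours differ from each other was not tested. Mmp12, between Mmp13 and Mmp1b, was at 0.58, -0.32 and 0.63 in the cKO arrays and 0.71, 0 and -0.17 in the control arrays, and Mmp1a, between Mmp3 and Mmp10, was at -0.37, -0.09 and -0.12 in the cKO arrays and -0.33, 0.16 and 0 in the control arrays. Mmp27 was at 0.03, 0.15 and 0.45 in the cKO arrays and 0, 0.03 and -0.01 in the control arrays, a separation of groups that rests on small values (limma adjusted p 0.753). Mmp20, the enamel protease, differed by 0.38 ± 0.29 with overlapping groups.

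**Figure D3:**
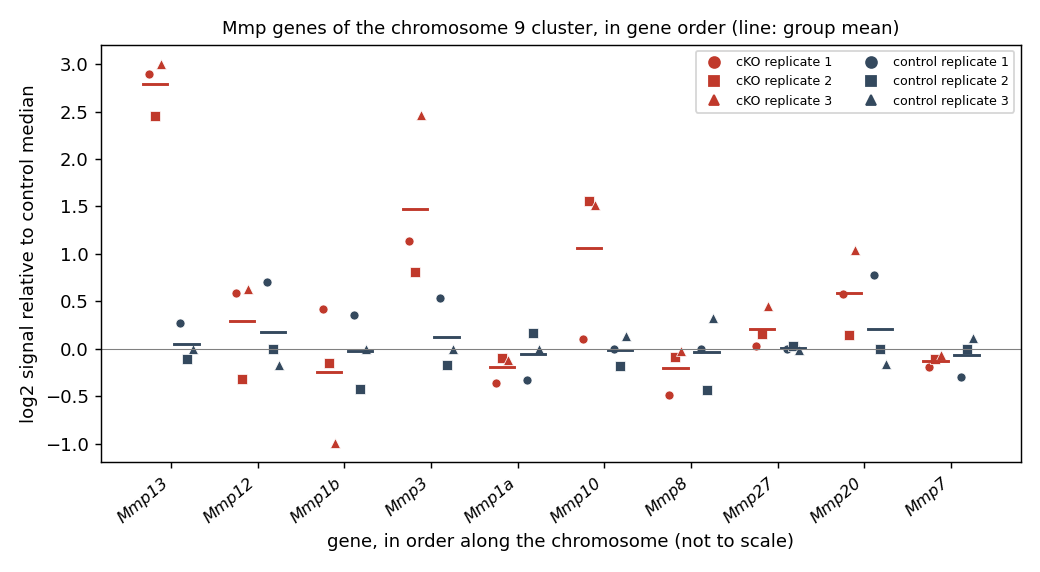
Log2 signal relative to the control median (vertical axis) on each array for the 10 neighbouring MMP genes of chromosome 9, in gene order (not to scale), cKO arrays in red left of control arrays in dark, with a line at the group mean. Mmp13 and Mmp3 have all cKO arrays clearly above the controls, Mmp10 has 2 of 3, and in the remaining genes the group means lie within 0.4 of each other while single arrays spread from -0.999 (Mmp1b, cKO replicate 3) to 1.04 (Mmp20, cKO replicate 3).

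The bases just before the annotated start are shown for 6 genes of this cluster, the 3 of largest difference (Mmp13, Mmp3, Mmp10) and 3 that lay near 0 (Mmp1a, Mmp8, Mmp27). They are the 110 bases before the start, 5′ to 3′ on the gene's strand, from RefSeq (GRCm38.p6). Capitals mark TGANTCA, where N is any base. With C or G in the middle, these are the letters of the AP-1 site that the Fos and Jun factors bind. That site is well known from inducible MMP promoters.
Mmp13, chr9:7272404-7272513, plus strand: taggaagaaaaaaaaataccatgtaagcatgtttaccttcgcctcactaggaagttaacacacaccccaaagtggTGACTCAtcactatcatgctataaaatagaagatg
Mmp3, chr9:7445712-7445821, plus strand: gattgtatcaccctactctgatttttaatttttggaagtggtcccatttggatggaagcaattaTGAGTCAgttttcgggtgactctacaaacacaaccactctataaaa
Mmp10, chr9:7502232-7502341, plus strand: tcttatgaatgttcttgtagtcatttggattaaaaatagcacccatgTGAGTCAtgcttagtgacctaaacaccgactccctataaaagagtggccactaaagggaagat
Mmp1a, chr9:7464031-7464140, plus strand: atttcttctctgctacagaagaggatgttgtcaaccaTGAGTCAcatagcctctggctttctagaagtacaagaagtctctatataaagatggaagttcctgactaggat
Mmp8, chr9:7558319-7558428, plus strand: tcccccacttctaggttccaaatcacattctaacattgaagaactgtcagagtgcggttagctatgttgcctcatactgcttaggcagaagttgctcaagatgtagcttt
Mmp27, chr9:7571286-7571395, plus strand: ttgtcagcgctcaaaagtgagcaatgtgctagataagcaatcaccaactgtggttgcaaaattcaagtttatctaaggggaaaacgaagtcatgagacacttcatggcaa
The AP-1 letters begin 35 bases before the start in Mmp13, 46 in Mmp3, 63 in Mmp10 and 73 in Mmp1a. The motif was searched on both strands of the 250 bases before each start, where it occurs in 6.75% of 32851 RefSeq windows. It occurred in 8 of the 10 cluster genes (in at least 1 window of genes with several starts), with Mmp8 and Mmp27 the exceptions, and in 0 of the other 7 MMP genes in the table. In Mmp20 the match was TGAATCA, without C or G in the middle. The 3 printed genes near 0 were picked by no set rule and include both exceptions, so the printed set does not represent the cluster. Genes with the letters were Mmp13, which was called, Mmp3 and Mmp10, which were not called, and Mmp1a, Mmp1b, Mmp7, Mmp12 and Mmp20. The genes named after Mmp10 were not called either and lay between -0.22 (Mmp1b) and 0.38 (Mmp20). TATAAA, the TATA box letters, was in 7 of the 10 cluster genes and 12.4% of all windows, none overlapping an AP-1 match. ATCAAAG, the letters of the TCF/LEF factors through which beta-catenin acts, was in 1 of the 10 (Mmp7, in 1 of its windows) and in 3.21% of all windows. Of the 75 genes, 45 were in the table, and of the 6 called genes Mmp13, Timp1 and Adamts12. Timp1 and Adamts12 held none of these 3 motifs in the window. ACCACA, the letters of the RUNX factors, was searched as well. It was in 4 of the 10 cluster genes (Mmp13, Mmp1b, Mmp27 and Mmp7), in Mmp14 and Mmp23, and in 14% of all windows.

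Among the ADAMs 1 of 30 was higher, 0 were lower (1 lower at an unadjusted p of 0.05) and 29 were not called, with a median difference of -0.0021. The methods' t-test called 0 of the 30 in either direction. Adam12, a sheddase of mesenchymal cells that cuts heparin-binding EGF-like growth factor, was at 1.33, 0.99 and 1.72 in the cKO arrays and 0, -1.28 and 0.06 in the control arrays. Control replicate 2 lay far below the other controls, and the groups did not overlap. The difference was 1.75 ± 0.34, a ratio of 3.36 (limma adjusted p 0.0159), and the call ended without control replicate 1 (0.0607) or cKO replicate 3 (0.157). Its cluster spans positions 141074882 to 141416780 of mm9 on the minus strand.

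The 9 ADAMs known as sheddases of somatic tissues had a median difference of 0.53, with Adam12 the 1 called and 5 higher at an unadjusted p of 0.05. Adam28 was at 0.71, 0.80 and 1.12 in the cKO arrays and -0.03, 0.05 and 0 in the control arrays. The values within each group were close together and the groups were clearly apart, yet the difference of 0.87 ± 0.21 was not called (limma adjusted p 0.06). Adam9 was at 0.72, 0.73 and 0.68 in the cKO arrays and -0.07, 0.34 and 0 in the control arrays (0.62 ± 0.21, limma adjusted p 0.213). Adam10, the main sheddase of Notch receptors and E-cadherin, differed by 0.53 ± 0.22 (limma adjusted p 0.317), also without overlap. Adam17, which releases tumour necrosis factor and EGF receptor ligands, was at -0.24, -0.18 and -0.38 in the cKO arrays and -0.46, 0 and 0.27 in the control arrays, with overlapping groups and a difference of -0.20 ± 0.23. Adam8, an ADAM of leukocytes and osteoclasts, differed by 0.64 ± 0.28 (limma adjusted p 0.361), and Adam15, Adam19 and Adam33 by -0.02, 0.21 and 0.08.

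Adam11, a neural ADAM without protease activity, had the largest negative difference of the family, -0.55 ± 0.23 (limma adjusted p 0.354), and its relative Adam22 differed by 0.44 ± 0.29. The other 19 ADAM genes, many of them known from testis and sperm, lay between -0.35 and 0.25, with a median of -0.03. Limma called 0 of the 19 (0 at an unadjusted p of 0.05). Adam1a and Adam1b, Adam6a and Adam6b, and Adam26a and Adam26b are close copies, and the share of each is uncertain.

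Among the ADAMTSs 1 of 19 was higher, 0 were lower (0 also at an unadjusted p of 0.05) and 18 were not called, with a median difference of 0.05. The methods' t-test called 0 of the 19 in either direction. Adamts12, which cuts cartilage oligomeric matrix protein, was at 1.37, 1.40 and 1.67 in the cKO arrays and 0.74, -0.04 and 0 in the control arrays. The cKO arrays lay close together and above all controls, of which replicate 1 was the highest. The difference was 1.25 ± 0.25, a ratio of 2.37 (limma adjusted p 0.0199), and the call ended without control replicate 2 (0.0616) or 3 (0.097), and on leaving out cKO replicate 3 (0.141). Its close relative Adamts7 differed by -0.14 ± 0.26, with overlapping groups. The Adamts12 cluster spans positions 10994786 to 11275432 of mm9 on the plus strand.

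Of the 3 procollagen N-proteinases, which trim the amino end of fibrillar procollagens, Adamts2 was at 1.02, 0.38 and 1.16 in the cKO arrays and 0, 0.41 and -0.07 in the control arrays. Its cKO replicate 2 lay below control replicate 2, and the difference was 0.74 ± 0.25 (limma adjusted p 0.217). Adamts3 and Adamts14 differed by -0.03 and 0.01. Limma called 0 of the 7 ADAMTSs known to cut proteoglycans such as aggrecan and versican (0 at an unadjusted p of 0.05). Of these Adamts5 was at 0.36, -1.16 and -0.90 in the cKO arrays and 0, -0.13 and 0.34 in the control arrays. Adamts5 thus had 2 cKO arrays below the controls and 1 above them, with a difference of -0.64 ± 0.34. Adamts1, Adamts4, Adamts8, Adamts9, Adamts15 and Adamts20 lay between -0.19 and 0.29. Adamts6 differed by -0.40 ± 0.38, of which control replicate 1 (1.66, against 0 and -0.01 in the other controls) was the most distant array, and by 0.16 without it. The remaining 7 ADAMTSs, Adamts6 included, had a median of -0.05 and a highest difference of 0.07. In 17 of the 19 ADAMTS genes control replicate 1 was the highest control array, and the share over all genes was not counted.

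In 4 genes the value is a mean over several clusters. Adamts3 had 16 clusters, of which 8 differed upward and 8 downward, between -0.51 and 0.36. Adamts17 had 5, between -0.45 and 0.47. Adamts9 had 6, all upward, between 0.01 and 0.62. Adam15 had 2, of opposite sign (-0.22 and 0.18), and 1 of these lies on the strand opposite the other. None of these clusters was called by limma when tested singly, with a smallest adjusted p of 0.352 in Adamts9 (0.0338 unadjusted).

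The 4 inhibitors differed in direction. Timp1, an inducible inhibitor of most MMPs, was at 2.47, 2.30 and 2.93 in the cKO arrays and 0.13, -1.17 and 0 in the control arrays. All cKO arrays lay at least 2 log2 units above all controls. The difference was 2.91 ± 0.32, a ratio of 7.53 (limma adjusted p 0.000288), and the call remained in each of the 6 fits without 1 array (adjusted p up to 0.00967). The cluster of Timp1 spans positions 20447292 to 20451863 of mm9 on the plus strand. RefSeq places the gene on chromosome X.

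Timp2, which both inhibits MMPs and helps Mmp14 to activate Mmp2, was at 0.67, 0.69 and 0.999 in the cKO arrays and 0.03, 0 and -0.48 in the control arrays, a difference of 0.93 ± 0.23 that was not called (limma adjusted p 0.0609). Timp3, the matrix-bound inhibitor that also blocks Adam17 and several ADAMTSs, was at -0.44, -0.66 and -1.29 in the cKO arrays and 0.10, -0.17 and 0 in the control arrays. Every cKO array of Timp3 lay below every control array, with a difference of -0.77 ± 0.25 (limma adjusted p 0.183). Timp4 was at -0.33, 0.02 and -0.04 in the cKO arrays and 0.24, -0.03 and 0 in the control arrays (-0.19 ± 0.21). Timp1 was thus the 1 inhibitor called, and whether the 4 differences differ from each other was not tested.

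**Figure D4:**
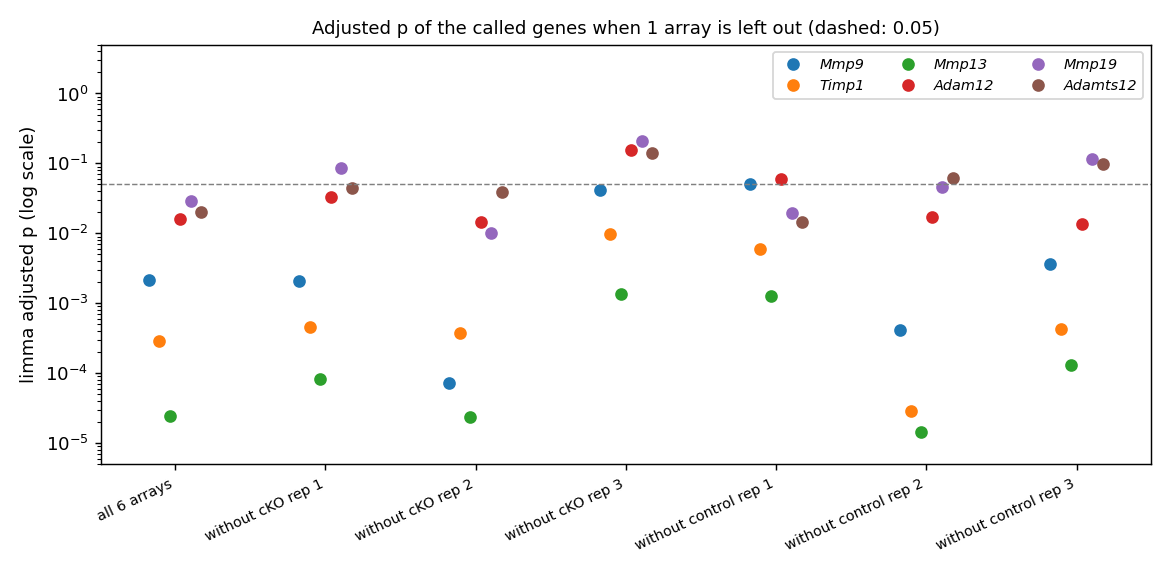
Limma adjusted p over all genes (vertical axis, log scale) of the 6 called genes with all 6 arrays and with each array left out, cKO arrays first; points are spread sideways so that they can be told apart, and the dashed line is 0.05. Mmp13 and Timp1 stay below the line in every fit, Mmp9 reaches 0.051 without control replicate 1, and Adam12, Mmp19 and Adamts12 each lie above it in at least 2 fits.

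The 6 calls were thus of unequal firmness. Mmp13 and Timp1 were called without any 1 array, Mmp9 in 5 of 6 such fits, Adam12 in 4, and Mmp19 and Adamts12 in 3. Without cKO replicate 3, the calls were Mmp13, Mmp9 and Timp1. The methods' t-test over all genes called 0 of the 75 (smallest adjusted p 0.0704, Mmp13), and it called 13 of all genes. At an unadjusted p of 0.05 that test put 16 of the 75 below the threshold, 14 of them higher, with 2422 of all 20793 genes. In the authors' deposited table, where the test followed a fold filter and so ran over fewer clusters, 9 members had a corrected p under 0.05: Mmp9, Timp1, Mmp13, Adamts12, Timp2, Mmp2, Adam28, Mmp23 and Adam9. Adam12 and Mmp19 passed the 1.5-fold filter of the authors' deposited table but were not in its list of significant clusters.

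Across arrays the members were most often highest in cKO replicate 3 among the cKO arrays (35 of 75) and in control replicate 1 among the controls (46 of 75). The shares over all genes were not counted, so these counts are not shown to be particular to the members. The median over all 20793 genes was 0.0152, -0.0067 and 0.0866 in the cKO arrays and 0 in each control array. The median over the 22 MMP genes was 0.47, 0.15 and 0.60 in the cKO arrays and 0.05, 0 and 0 in the control arrays, lowest among the cKO arrays in replicate 2.

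Other genes of the same proteolytic network were read from 6 lists. Of 111 measured genes 10 were higher, 2 were lower and 99 were not called, with a median difference of 0.18. Among 25 matrix substrates of MMPs and ADAMTSs, 4 were higher and 0 lower (1 lower at an unadjusted p of 0.05): Col1a1 (2.01 ± 0.29, limma adjusted p 0.00227) and Col1a2 (1.71 ± 0.27), which form type I collagen, Col3a1 (1.41 ± 0.25), which forms type III collagen, and Spp1 (1.12 ± 0.20), which encodes osteopontin, a bone matrix protein. The call of Spp1 ended without control replicate 3 (0.0543), and that of Col3a1 without cKO replicate 3 (0.0693).

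Of 25 ADAM substrates, Areg and Tnfrsf1b were higher and Btc was lower. Areg, which encodes amphiregulin, an EGF receptor ligand released by Adam17, was at 2.05, 2.50 and 2.82 in the cKO arrays and 0, -0.59 and 0.45 in the control arrays, a difference of 2.50 ± 0.29 (limma adjusted p 0.000403). Btc, which encodes betacellulin, another ligand of that receptor, went the other way, at -1.92, -1.08 and -0.92 in the cKO arrays and -0.23, 0 and 0.32 in the control arrays (-1.33 ± 0.28, limma adjusted p 0.0258). Tnfrsf1b, a receptor of tumour necrosis factor, was higher by 1.89 ± 0.41 (limma adjusted p 0.0333). The calls of Btc and Tnfrsf1b ended without control replicate 3 (0.116 and 0.0602) or cKO replicate 1 (0.0934 and 0.0568) or 3 (0.0539 and 0.249), and that of Btc also without control replicate 1 (0.0759). With robust variances Tnfrsf1b was not called either (0.113).

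Among secreted cathepsins and other matrix proteases 2 of 16 were higher, Ctsk (cathepsin K, the collagenase of osteoclasts, 2.22 ± 0.30) and Klk6 (a kallikrein, 1.59 ± 0.23). In the same list Dpp4 (a dipeptidyl peptidase also known as a fibroblast marker) fell by 1.10 on the log2 scale (limma adjusted p 0.0444). Dpp4 kept its call without cKO replicate 3 alone among the 6 fits without 1 array, with adjusted p of 0.123, 0.105 and 0.119 without control replicates 1, 2 and 3 and 0.186 and 0.0874 without cKO replicates 1 and 2. Among 14 ADAMTS-like, astacin and meprin genes, 1 was higher, Bmp1, the procollagen C-proteinase (1.16 ± 0.24, limma adjusted p 0.0269). Its call ended without control replicate 1 (0.0662) or 3 (0.134) or cKO replicate 2 (0.0533) or 3 (0.157). Of 20 genes of MMP activation and control, 1 was higher, the proprotein convertase Pcsk5 (1.15 ± 0.27, limma adjusted p 0.0496). That call ended without control replicate 1 (0.157) or 3 (0.212) or cKO replicate 1 (0.191) or 3 (0.159), with arrays centred on their medians (0.0679) and with clusters tested singly (0.0543). Limma called 0 of 14 ADAM maturation and trafficking partners (0 higher and 1 lower at an unadjusted p of 0.05, 0 by the methods' t-test). In that list Tspan14, a tetraspanin partner of Adam10, differed by -1.29 ± 0.32 (limma adjusted p 0.064).

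Markers of the cell types that a digit tip can hold were read beside these values, list by list. Of 12 osteoblast and osteocyte markers 5 were higher and 0 lower, with a median difference of 1.10 (4 called without control replicate 1 and 4 without cKO replicate 3), and the list's median was 0.78, 1.32 and 1.20 in the cKO arrays and 0, 0 and -0.22 in the control arrays. Of 12 osteoclast markers Ctsk and Atp6v0d2 were higher and 10 were not called, with list medians of 0.28, 0.03 and 0.31 in the cKO arrays and 0.21, -0.07 and 0 in the control arrays. Atp6v0d2, a proton pump subunit of osteoclasts, was at 3.75, 2.16 and 3.33 in the cKO arrays and 0, -0.10 and 0.79 in the control arrays, and Ctsk at 2.83, 1.49 and 2.52 in the cKO arrays and 0.17, 0 and -0.0048 in the control arrays. In both, as in Mmp9 and Mmp19, cKO replicate 1 was the highest and cKO replicate 2 the lowest cKO array. Among the 75 members, cKO replicate 2 was the lowest cKO array in 36 and cKO replicate 1 the highest in 19. The same order also held in members that were not called, among them Mmp2, Mmp14, Mmp23, Adamts5 and Adam7. It did not hold in the called genes Mmp13, Timp1, Adam12 and Adamts12. How often both held in a gene, and the shares over all genes, were not counted. The shared order is therefore not shown to be particular to these genes, and a link between them was not tested.

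Of 12 macrophage markers Lyz2 (1.26 ± 0.24) was the 1 called, a call that ended without control replicate 3 (0.0649) or cKO replicate 3 (0.1), with a list median of 0.50. Of 11 neutrophil markers limma called 0 (1 higher at an unadjusted p of 0.05), with a median of 0.17. Of 10 dermal fibroblast markers Col3a1 and Fbln2 were higher and Dpp4 was lower, with a median of 0.37, and the call of Fbln2 was lost in 4 of the 6 fits without 1 array (adjusted p 0.0918 to 0.24) and with arrays centred on their medians (0.053). Of 12 keratinocyte markers the stress keratins Krt16, Krt6a and Krt17 were higher by 1.38, 1.06 and 1.08, and Krt15 was lower by a difference of -1.45. The call of Krt17 ended in 5 of the 6 fits without 1 array (adjusted p 0.0578 to 0.123) and that of Krt6a in 3 (0.0567 to 0.0701). The median of the keratinocyte list was 0.02. Of 10 sebaceous gland markers 6 were lower and 0 higher (median -1.98, with 4 called without control replicate 1 and 4 without cKO replicate 3). Of 11 nail and hair matrix markers 2 were lower and 0 higher, with 4 lower and 1 higher at an unadjusted p of 0.05. The higher marker was Krt84 (0.88 ± 0.23), with every cKO array above every control array. The nail and hair matrix list had a median of -0.49, with 1 called without control replicate 1 and 1 without cKO replicate 3. Of 10 T cell markers 2 were higher and 0 lower (median 0.31), and of 10 endothelial markers limma called 0 with 6 higher at an unadjusted p of 0.05 (median 0.65). Limma called 0 of the chondrocyte, mast cell, skeletal muscle and Schwann cell markers, with medians of -0.16, -0.03, -0.07 and -0.21 and with 1 chondrocyte marker higher, 1 lower and 1 Schwann cell marker lower at an unadjusted p of 0.05. The part of these cell types in the differences of Mmp9, Mmp13, Timp1, Adam12, Mmp19 and Adamts12 was not tested, and since the values are relative to the controls, no marker can be called absent.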

How the data were processed

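RNA of 3 cKO and 3 control digit tips was measured on MoGene 1.0 ST arrays; the protocol in the labels gives a 3 prime labelling kit, which such arrays do not normally take. The authors computed PLIER16 signals with quantile normalisation, per the file headers, and deposited log2 values set to the median of the controls, which is 0 in all 28853 clusters; annotation was release na31 on mm9, per the file headers. Their lists, deposited beside these values, give a signed fold score (cKO over control, negative reciprocal where lower) and p-values with a Benjamini-Hochberg correction, after 20th percentile and 1.5-fold filters, per the file headers.

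The series value table was used; it differed from the workbook by at most 5e-05. Clusters with 1 gene (22971) were averaged per gene after symbols were updated through Entrez identifiers with RefSeq (GRCm38.p6; 21924 matched), giving 20793 genes; 2946 clusters with several genes and 2936 with none were left out. No filter on low values was applied. The 2 groups were fitted by limma 3.58.1 under R 4.3.3 (moderated test, prior degrees of freedom 8.79), without covariates, and the script was tested on simulated data. The number of arrays limits the precision. Named genes were Ctnnb1, all Timp genes, called members, up to 6 further members of smallest p per family, the largest difference of each sign, and up to 4 genes of smallest p per list; other members are named to account for every subgroup. Those exceptions, the members, lists and subgroups were chosen with earlier results of these data known. Alternatives were centred arrays, a replicate block, array weights, the methods' t-test, robust variances, clusters tested singly, the percentile filter, workbook values and each array left out. Python 3.11.15 was used for tables and figures.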

Additional observations from a re-analysis of the deposited data

Results flagged for a closer look

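Clusters shared with other genes fell outside the comparison, and 11 of them named an MMP, ADAM or ADAMTS gene. In 2 of the 11 the cKO arrays all exceeded the controls. The cluster shared by Mmp24 and BC029722 was at 0.67, 0.21 and 0.98 in the cKO arrays and 0.21, 0 and -0.28 in the control arrays, with a margin of under 0.01 between the lowest cKO and the highest control array and a difference of 0.64. The cluster of Mmp24 alone differed by -0.02. The cluster shared by Adam34 and Gm5347 was at 0.16, 0.44 and 0.23 in the cKO arrays and 0.10, -0.59 and 0 in the control arrays, a difference of 0.44. These clusters were singled out after their values were seen. In 1 further cluster, shared by Mmp7 and several Rpl29 sequences, every cKO array lay below the controls, with a difference of -0.40. Separated groups occurred in 10.1% of all genes upward and 9.25% downward, none of these clusters was tested, and which of the genes gave the signal was not tested.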

How the results depend on the processing

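The 4 families kept 0 calls of lower genes under every alternative run. Lower calls were 0.697% of all genes in the main fit, so their absence is not shown to be particular to the members. With array weights limma called 7 Mmp, 2 Adam and 2 Timp genes, 22 of the pathway genes and 828 of all genes, against 3, 1, 1, 12 and 403. The methods' t-test called 0 in the Mmp, Adam, Adamts and Timp families and among the pathway genes, and 13 of all genes. The 20th percentile filter works on control-centred values and dropped 14 members, Timp3 among them. It kept a cluster when all arrays of either group reached that percentile, so it favours genes higher in the cKO. It gave 4 Mmp, 2 Adam and 2 Timp calls, with Mmp16 (limma adjusted p 0.0487) added. Over all genes it gave 307 higher and 47 lower calls, against 258 and 145, with a median difference of 0.10. Its added member calls, and its lack of lower member calls, are thus partly set by the filter. With 1 array left out, calls ranged from 2 to 4 for Mmp, 0 to 1 for Adam, 0 to 1 for Adamts, 1 to 1 for Timp, 6 to 13 for the pathway genes and 192 to 403 for all genes. Mmp1b, not called, reversed to 0.27 with array weights and 0.16 without cKO replicate 3, within a range of -0.55 to 0.16 over the fits without 1 array, and Adamts6 reversed to 0.16 without control replicate 1, within -0.68 to 0.16. Mmp16 was also called with robust variances (adjusted p 0.0448). The cause of these changes was not tested. Whether replicate numbers pair the samples is not settled. Deviations of same-numbered arrays from their group means correlated at 0.0424, 0.138 and -0.0851. For cKO replicates 1 and 2 the same-numbered control gave the highest correlation, while cKO replicate 3 correlated best with control replicate 1 (0.138). Correlations of deviations from means of 3 arrays cannot decide a pairing. With the replicate block the Mmp calls were 7, with Mmp2, Mmp3, Mmp10 and Mmp16 added, and the family counts of Adam, Adamts and Timp were 1 each. With 3 arrays per group, separated groups with differences of up to 1.35 (Mmp3) were not called, so a gene not called is not shown to be unaltered.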
